A study of Mus musculus with 12 samples.

Results

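The comparison described here is between hippocampi taken 6 h and 1 h after an intraperitoneal injection of vehicle in C57BL/6 wild-type mice. It was made on the 6 vehicle libraries of the raw count table, replicates 12, 14 and 21 at 6 h against replicates 4, 5 and 9 at 1 h, out of 12 libraries in the series. The spread between mice was estimated from all 12 libraries. Each library is 1 mouse as far as the labels tell. The other 6 libraries come from mice of the same strain and genotype injected intraperitoneally with a plant sterol, 3 at 1 h and 3 at 6 h. Those labels name stigmasterol in most fields and beta-sitosterol at 100 mg/kg in the treatment field, and the word stigmasterol is used below. The labels give no sex, age, clock time of the injections or vehicle composition, and no mouse without an injection was analysed here. Time since the injection, recovery from handling and the hour of the day therefore cannot be told apart in this comparison.

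An injection is a brief stress even when nothing active is injected. In the brain it is known to induce immediate early genes such as Fos within the first hour, and their messages decay over the next hours. Handling, restraint and needle entry also raise glucocorticoids and can start an acute-phase signal in vessels and glia, carried by NF-kappa-B and by the JAK-STAT pathway. Independently of any treatment, the circadian clock of hippocampal cells moves its own transcripts by the hour, with the transcription factors Arntl and Clock driving the Period and Cryptochrome repressors.

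Total counts lay between 27613253 and 34805747 per vehicle library. Of 21532 genes in the table, 18382 had enough counts to be tested. Neuronal and glial genes were present in every library, and Prox1, which marks dentate granule cells, lay between 138 and 186 CPM (counts scaled to a common library size with edgeR's TMM factors). RNA of tissues that border the hippocampus differed between libraries, as the plot of marker levels shows. Markers of the choroid plexus had mean levels of 0.99, 5.39 and 1.27 (log2 CPM) in replicates 4, 5 and 9 at 1 h and 5.22, 3.78 and 5.86 in replicates 12, 14 and 21 at 6 h. Replicates 4 and 9 at 1 h therefore stood apart from the other 4 vehicle libraries. Meningeal fibroblast markers averaged 3.09, 3.08 and 3.09 at 1 h and 4.03, 3.30 and 3.97 at 6 h, so every 6 h library was above every 1 h library. The trend of a library's values with the GC content of transcripts also separated the times. Per 10 points of GC it was -0.145, -0.0875 and -0.116 log2 units at 1 h and 0.0444, 0.0802 and -0.0433 at 6 h. The part of these library differences in the results below was not tested, beyond the values given for fits that include them.

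**Figure D1:**
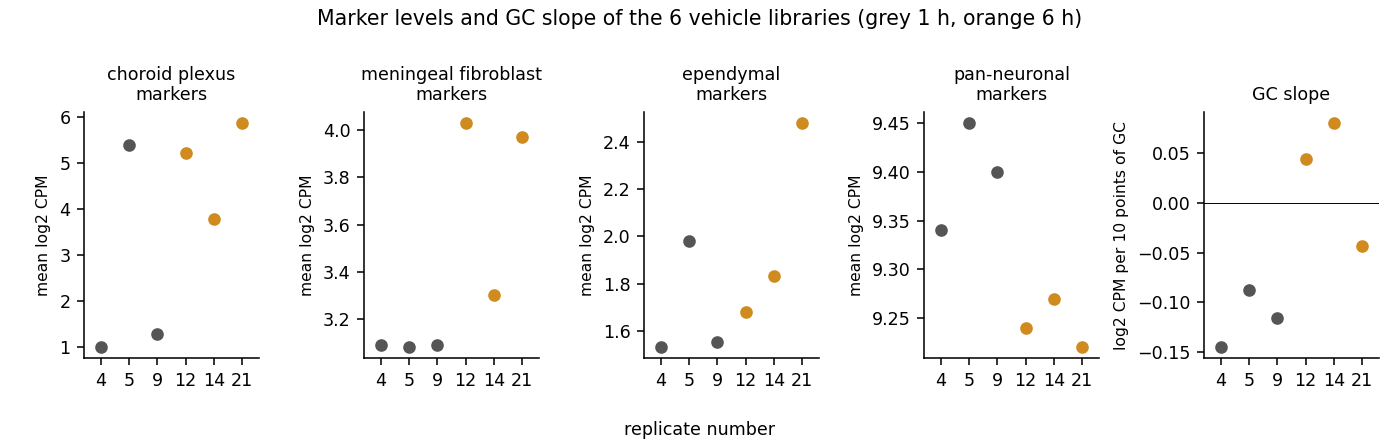
Mean log2 CPM of 4 marker lists and the slope of log2 CPM on transcript GC content in the 6 vehicle libraries, grey for 1 h and orange for 6 h, with replicate numbers on the horizontal axes. Choroid plexus markers were low in replicates 4 and 9 at 1 h, and meningeal markers and GC slopes were higher in all 3 libraries at 6 h than in all 3 at 1 h.

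From 1 h to 6 h after vehicle, 85 genes rose and 39 fell at an adjusted p below 0.05, which is 0.462% and 0.212% of the genes tested and 0.675% in all. The largest increases among them were in the NF-kappa-B cofactor Bcl3, the oxysterol enzyme Ch25h and the secreted glycoprotein Lrg1. Genes that fell included the synaptic scaffold Homer1, the clock repressor Nfil3 and the receptor-tyrosine-kinase inhibitor Errfi1. Changes were small in size. The median log2 fold change was 0.58 among the 85 and -0.46 among the 39, only 8 genes changed more than 2-fold, and all 8 were higher at 6 h. Besides these 3 they were Loxl4, Gli1, Ifitm1, Osgin1 (1.68 ± 0.28, adjusted p = 0.0303) and Grrp1 (1.65 ± 0.29, adjusted p = 0.0324).

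Fold changes are log2 values of 6 h against 1 h, each with its standard error (SE), and a gene is said to have risen or fallen only where edgeR's quasi-likelihood test gave an adjusted p below 0.05 over all 18382 genes. Without adjustment 3901 genes (21.2%) had p below 0.05, namely 1940 with the 6 h level higher (10.6%) and 1961 with it lower (10.7%). With each library's trends in GC content and transcript length removed, 10.4% were higher and 15.2% lower in this sense. The median log2 fold change over all genes tested was 0.01. For the 124 genes no 6 h library overlapped any 1 h library, while 15.9% of all genes tested were separated in this way with 6 h higher and 17.4% with 6 h lower (33.3% in all). Where separation is given for a called gene below, it describes the values and is not added evidence. The adjusted calls rest on all 6 libraries. Leaving out 1 library left 3 genes without replicate 4 at 1 h, 0 without replicate 5, 2 without replicate 9, 1 without replicate 12 at 6 h, 2 without replicate 14 and 4 without replicate 21. All 124 genes kept their direction in each of these fits, which the separation of their groups all but fixed beforehand. With choroid plexus or meningeal marker content as a covariate 0 genes passed, though 14.4% and 18.3% of genes still had an unadjusted p below 0.05. Upper-quartile scaling gave 187 genes, 157 higher and 30 lower.

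**Figure D2:**
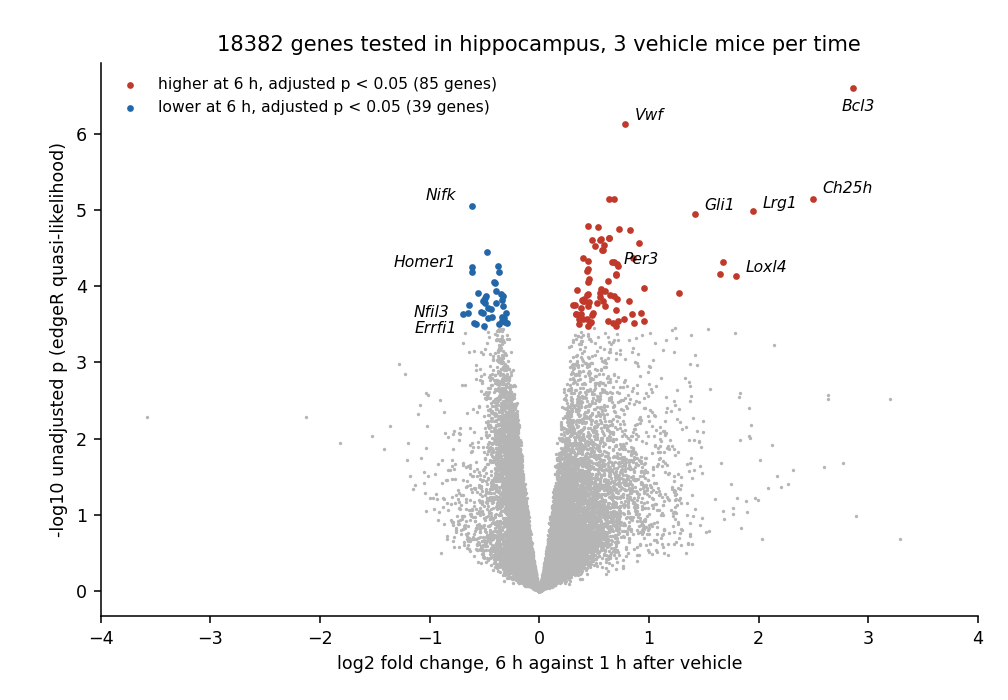
Log2 fold change of 6 h against 1 h after vehicle (horizontal) and -log10 of the unadjusted p (vertical) for the 18382 genes tested; red and blue points are the 85 higher and 39 lower genes at an adjusted p below 0.05. Bcl3 stands highest, Ch25h and Lrg1 lie farthest to the right of the other called genes, and no called gene lies further left than -0.70.

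Of the inflammatory signalling genes, Bcl3 had the largest log2 fold change of all called genes. Bcl3 (chr7:19808462-19822770, minus strand, GRCm38) encodes a nuclear I-kappa-B protein that partners the p50 and p52 subunits of NF-kappa-B. It was at 0.125, 0.176 and 0.305 CPM at 1 h and 1.81, 1.31 and 1.38 CPM at 6 h, or 4, 5 and 10 reads against 61, 46 and 38. Every 6 h library was more than 4 times as high as any 1 h library. The log2 fold change was 2.86 ± 0.30 (SE, adjusted p = 0.00458), the smallest adjusted p of all genes. Bcl3 passed with any single library left out except replicate 5 at 1 h, where its adjusted p was 0.0616 at a log2 fold change of 2.78.

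Ch25h (chr19:34473778-34475164), which makes the immune oxysterol 25-hydroxycholesterol, was next in size among the genes that rose. It was at 0.156, 0.246 and 0.396 CPM at 1 h and 1.40, 1.39 and 1.81 CPM at 6 h, and the groups were far apart. The log2 fold change was 2.50 ± 0.35 (adjusted p = 0.0256). Lrg1 (chr17:56119678-56122001), an acute-phase glycoprotein made by endothelium and liver, was at 0.436, 0.810 and 0.853 CPM at 1 h and 3.21, 2.25 and 2.65 CPM at 6 h. The lowest 6 h library was well above the highest 1 h library, with a log2 fold change of 1.95 ± 0.28 (adjusted p = 0.0256). With 1 library left out, the adjusted p of Ch25h lay between 0.0637 and 0.139 and that of Lrg1 between 0.0546 and 0.139, while their log2 fold changes stayed at 2.22 or more and 1.70 or more.

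The promoters of Bcl3, Ch25h and of Socs3, the feedback inhibitor of JAK-STAT signalling, are shown because each holds a short motif of a signal-dependent factor near its start. They are RefSeq sequences of GRCm38.p6, running from 250 bases before to 50 bases after the annotated start, 5′ to 3′ on the gene's strand, which is the minus strand for all 3. Capitals mark the kappa-B motif in Bcl3 (chr7:19822706-19823005), the cyclic AMP response element TGACGTCA in Ch25h (chr19:34475099-34475398) and the STAT motif TTCNNNGAA in Socs3 (chr11:117969317-117969616).
Bcl3: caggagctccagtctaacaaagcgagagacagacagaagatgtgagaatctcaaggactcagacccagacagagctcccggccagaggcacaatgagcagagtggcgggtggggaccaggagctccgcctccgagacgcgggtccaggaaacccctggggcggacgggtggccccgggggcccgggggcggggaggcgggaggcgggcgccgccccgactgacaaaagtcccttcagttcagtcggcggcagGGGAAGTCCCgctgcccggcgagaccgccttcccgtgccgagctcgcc
Ch25h: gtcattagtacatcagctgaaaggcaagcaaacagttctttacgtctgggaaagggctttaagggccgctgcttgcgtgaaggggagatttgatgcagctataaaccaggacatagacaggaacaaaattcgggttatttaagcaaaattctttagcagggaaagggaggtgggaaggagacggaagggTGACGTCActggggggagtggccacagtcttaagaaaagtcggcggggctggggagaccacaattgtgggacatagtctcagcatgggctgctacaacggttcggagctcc
Socs3: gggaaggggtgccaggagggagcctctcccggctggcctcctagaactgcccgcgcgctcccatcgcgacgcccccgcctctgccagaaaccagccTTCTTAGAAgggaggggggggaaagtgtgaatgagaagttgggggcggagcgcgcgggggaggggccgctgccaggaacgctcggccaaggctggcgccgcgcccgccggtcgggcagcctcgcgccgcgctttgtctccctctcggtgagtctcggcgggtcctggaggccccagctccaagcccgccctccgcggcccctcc
Both strands were searched and the marked motifs do not overlap one another. The kappa-B motif of Bcl3 begins 2 bases and ends 11 bases from the start. That motif occurs in 6.44% of the 12834 promoters matched to genes tested, TGACGTCA in 3.29% and TTCNNNGAA in 8.24%. Of 21 NF-kappa-B and inflammatory genes with a promoter in the table, 9 hold a kappa-B motif. A match describes the letters only.

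Other members of the NF-kappa-B and acute-phase lists lay in the same direction below the threshold. Socs3 was at 1.18, 0.986 and 1.46 CPM at 1 h and 2.79, 2.45 and 4.35 CPM at 6 h, with a log2 fold change of 1.38 ± 0.30 (adjusted p = 0.0527). Its groups did not overlap. The oncostatin M receptor gene Osmr had 0.66 ± 0.18 and the leukocyte adhesion gene Icam1 0.60 ± 0.16 (adjusted p = 0.0819 for both). Of 25 NF-kappa-B and inflammatory genes tested, 2 rose (Bcl3 and Ch25h), 0 fell, and 11 were higher and 0 lower at an unadjusted p below 0.05, which 10.6% and 10.7% of all genes reached. This list and those below were chosen with earlier results of these data known. Shares above those of all genes are therefore no independent support. The median of the NF-kappa-B list was 0.24, and 0.16 without replicate 9 at 1 h. Its mean level was 1.46, 1.58 and 1.64 log2 CPM at 1 h and 2.17, 2.12 and 2.38 at 6 h. Of 27 acute-phase and JAK-STAT genes, 2 rose (Lrg1 and Tgm2), and 10 were higher and 2 lower at an unadjusted p below 0.05, around a median of 0.21. The 2 lower genes were 0 without replicates 5 or 9 at 1 h or replicate 12 at 6 h, and the median was 0.33 without replicate 14 at 6 h. The neutrophil protein gene Lcn2 is in both the acute-phase and the NF-kappa-B list and was at 0.436, 0.211 and 0.427 CPM at 1 h and 3.27, 2.02 and 2.21 CPM at 6 h, yet its SE was wide (2.77 ± 1.05, adjusted p = 0.163).

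Tgm2, which encodes the matrix-crosslinking enzyme transglutaminase 2, was at 16.8, 16.9 and 17.8 CPM at 1 h and 30.2, 23.4 and 29.0 CPM at 6 h. All 1 h libraries were close together and all 6 h libraries higher, with a log2 fold change of 0.68 ± 0.11 (adjusted p = 0.0303). Jak3, a kinase of cytokine receptors with the common gamma chain, was at 9.75, 8.77 and 9.75 CPM at 1 h and 15.7, 16.1 and 14.9 CPM at 6 h (0.72 ± 0.11, adjusted p = 0.027). Sbno2, a STAT3-induced transcriptional coregulator, rose by 0.48 ± 0.08 (adjusted p = 0.027). Ifitm1, a membrane protein gene that interferon induces, rose by 1.28 ± 0.24 (adjusted p = 0.0394) and was the only one of 35 interferon-stimulated genes to pass. That list as a whole had a median of 0.05, with 2 genes higher and 1 lower at an unadjusted p below 0.05, and without replicate 21 at 6 h it had 4 lower and a median of -0.12. Blood and microglial markers lay beside these changes as follows. Microglia markers averaged 5.34, 4.98 and 5.22 log2 CPM at 1 h and 5.18, 5.22 and 5.25 at 6 h. Blood cell markers averaged 1.08, 2.52 and 1.46 at 1 h and 1.63, 1.97 and 1.72 at 6 h. The means of both lists overlapped between the times. The 9 blood cell genes tested went both ways, from -1 to 2.01 in log2 fold change. Of them 2 were higher (22.2%, against 10.6% of all genes) and 0 lower at an unadjusted p below 0.05. Their median was -0.76, and between -1.17 and 0.34 with 1 library left out.

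**Figure D3:**
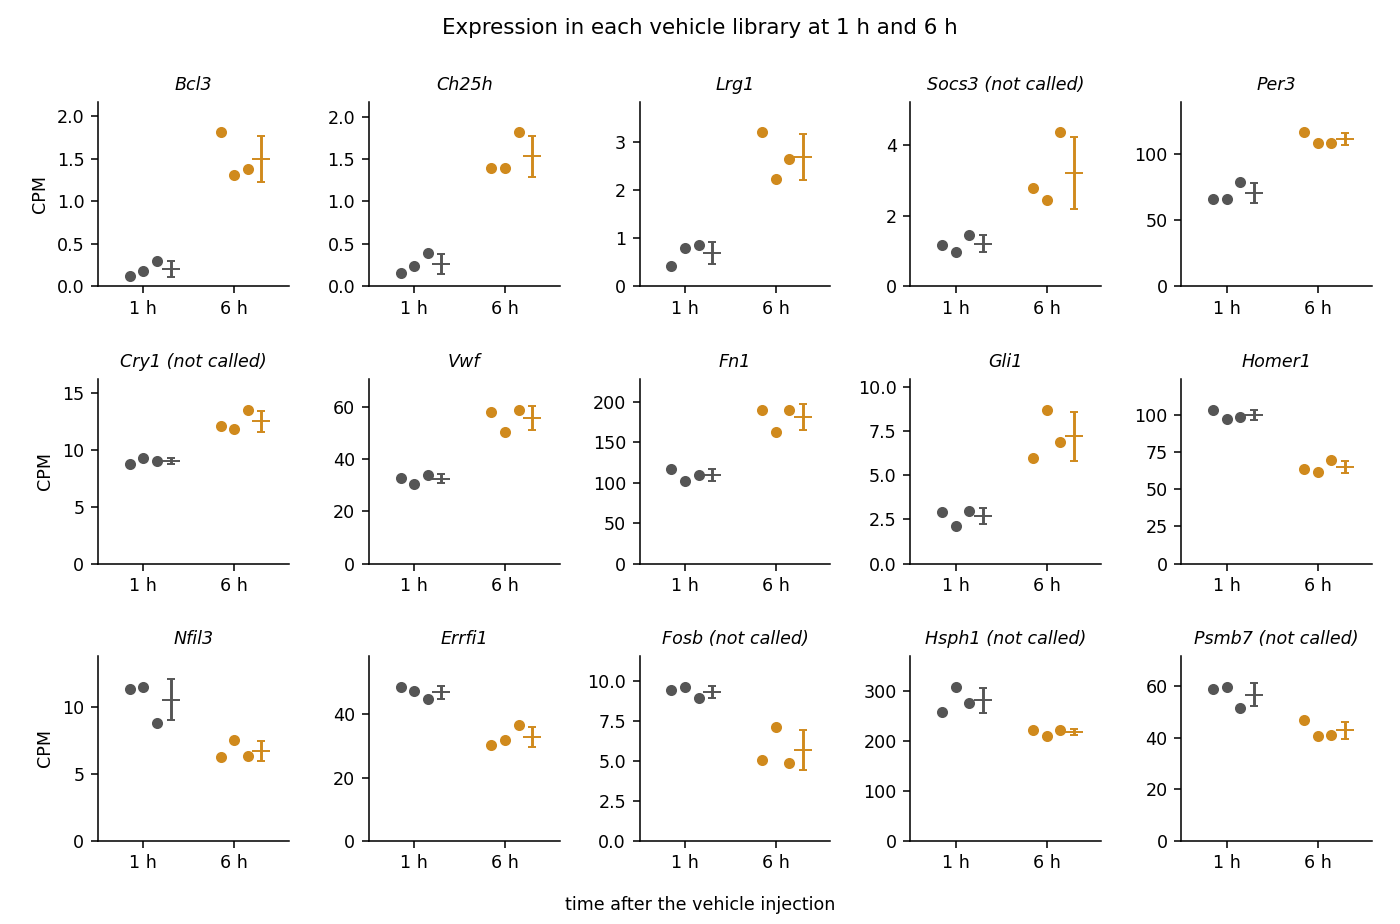
CPM of 15 genes in each vehicle library, grey points for 1 h (replicates 4, 5 and 9 from left to right) and orange for 6 h (12, 14 and 21), with the mean and SD of 3 libraries as a bar at the right of each group. The 6 h points lie above the 1 h points from Bcl3 to Gli1 and below them from Homer1 to Psmb7; titles mark the genes that did not pass an adjusted p of 0.05.

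Circadian clock genes were the next group with called members. Per3 (chr4:151003652-151044665, minus strand), a Period gene of the negative limb, was at 66.1, 66.1 and 79.3 CPM at 1 h and 117, 109 and 109 CPM at 6 h. The lowest 6 h library exceeded the highest 1 h library by more than the spread within either group. Per3 rose by 0.66 ± 0.11 (adjusted p = 0.0303). Nfil3 (chr13:52967209-52981073), which represses genes through the D-box, was at 11.3, 11.5 and 8.78 CPM at 1 h and 6.24, 7.54 and 6.31 CPM at 6 h. It fell by 0.65 on the log2 scale (SE 0.13, adjusted p = 0.0432), with groups that did not overlap. Dbp, the activator that binds the same element, was at 30.2, 28.9 and 34.4 CPM at 1 h and 47.4, 46.2 and 51.6 CPM at 6 h. Its groups were as clearly apart, but its log2 fold change of 0.63 ± 0.19 had an adjusted p = 0.104. With 1 library left out, the adjusted p of Per3 lay between 0.0765 and 0.148 and that of Nfil3 between 0.0875 and 0.159.

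The Per3 promoter is shown because it holds the D-box motif TTATGTAA, in capitals, at 2 places, 205 to 198 and 158 to 151 bases before the start (RefSeq, GRCm38.p6, chr4:151044616-151044915, minus strand, 5′ to 3′).
Per3: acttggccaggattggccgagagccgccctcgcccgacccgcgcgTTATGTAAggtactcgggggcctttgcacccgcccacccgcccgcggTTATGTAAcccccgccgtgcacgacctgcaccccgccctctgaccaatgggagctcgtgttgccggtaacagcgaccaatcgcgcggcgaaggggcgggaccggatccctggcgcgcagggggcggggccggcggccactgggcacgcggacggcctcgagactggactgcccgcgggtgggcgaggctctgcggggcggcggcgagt
That motif occurs in 0.756% of the 12834 promoters, searched on both strands, and in 2 of the 17 promoters of clock core genes. Its presence says nothing about binding here.

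Of 23 clock core genes 1 rose and 0 fell, and 8 were higher and 1 lower at an unadjusted p below 0.05, around a median of 0.09. The number higher was 5 without replicate 9 at 1 h and without replicates 12 or 14 at 6 h, and the median was 0.05 without replicate 5 at 1 h. Cry1, a Cryptochrome repressor, was at 8.72, 9.26 and 9.05 CPM at 1 h and 12.1, 11.8 and 13.5 CPM at 6 h (0.47 ± 0.11, adjusted p = 0.0653). Per2 had a log2 fold change of 0.32 ± 0.12 and Per1 one of 0.29 ± 0.14. Ciart, another repressor, had 0.44 ± 0.20, whereas Arntl, the activator of the positive limb, had -0.26 ± 0.11 with 29.7, 29.2 and 29.0 CPM at 1 h and 25.6, 24.3 and 23.6 CPM at 6 h. None of these 4 passed (adjusted p from 0.155 to 0.243). The nuclear receptor repressors Nr1d1 and Nr1d2 overlapped between the times, at -0.06 ± 0.11 and 0.01 ± 0.12. Among 19 clock output genes 1 fell (Nfil3) and 0 rose, 6 were lower and 2 higher at an unadjusted p below 0.05, and the median was -0.09. The number lower was 2 without replicate 14 at 6 h. The 2 higher genes were Dbp and the deubiquitinase gene Usp2 (0.41 ± 0.11, adjusted p = 0.0767).

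Of the activity-regulated effector genes, Homer1 passed the threshold and was lower at 6 h. Homer1 (chr13:93299635-93405129), a postsynaptic scaffold with a short activity-induced isoform, was at 104, 97.3 and 98.3 CPM at 1 h and 63.6, 61.8 and 69.8 CPM at 6 h. The 1 h libraries lay close together, far above the 6 h libraries. Homer1 fell by 0.62 on the log2 scale (SE 0.11, adjusted p = 0.0312), and its adjusted p lay between 0.0755 and 0.139 with 1 library left out. Counts per gene do not tell its isoforms apart. Of 32 activity-regulated effector genes 0 rose and 1 fell, with 0 higher and 8 lower at an unadjusted p below 0.05 (5 lower without replicate 14 at 6 h) and a median of -0.18. The secretogranin gene Scg2 had -0.39 ± 0.08 (adjusted p = 0.0527). Arc, which regulates AMPA receptor traffic, was at 156, 95.6 and 82.4 CPM at 1 h and 86.5, 100.1 and 82.5 CPM at 6 h, and its groups overlapped (-0.31 ± 0.38). Bdnf, a neurotrophin gene, had -0.17 ± 0.10.

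Among 29 immediate early transcription factors 1 fell (Nfil3, which is also in this list), with 1 higher and 6 lower at an unadjusted p below 0.05 and a median of -0.05. The number lower was 3 without replicate 4 or 5 at 1 h, and the median lay between -0.11 (without replicate 4) and -0.03 (without replicate 21) with 1 library left out. With GC and length trends removed 0 of this list were higher and 10 lower, around a median of -0.18. The AP-1 subunit gene Fosb was at 9.44, 9.65 and 8.93 CPM at 1 h and 5.08, 7.14 and 4.89 CPM at 6 h. Its groups did not overlap, and its log2 fold change was -0.71 ± 0.18 (adjusted p = 0.0781). Fos was at 10.7, 8.06 and 5.82 CPM at 1 h and 3.24, 7.00 and 2.97 CPM at 6 h. Replicate 14 at 6 h lay within the 1 h range, and the log2 fold change was -0.89 ± 0.39 (adjusted p = 0.211). Egr2 had -1.15 ± 0.52 and Egr3, its paralogue, -0.31 ± 0.11. The neuronal factor Npas4 went the other way, from 8.35, 6.41 and 6.64 CPM at 1 h to 10.8, 15.5 and 8.01 CPM at 6 h (0.69 ± 0.29, adjusted p = 0.202). Junb at 0.02 ± 0.19 and Nr4a1 at 0.10 ± 0.20 showed no direction beyond their error.

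Errfi1 (chr4:150853919-150868892), an induced inhibitor of EGF receptor signalling, was at 48.7, 47.4 and 44.9 CPM at 1 h and 30.3, 32.0 and 36.5 CPM at 6 h. It fell by 0.51 on the log2 scale (SE 0.10, adjusted p = 0.0432), with no overlap between groups. Errfi1 is a member of both the MAP kinase feedback and the glucocorticoid-responsive lists. Of 17 MAP kinase feedback inhibitors it was the only call, and 2 were higher and 6 lower at an unadjusted p below 0.05. The number lower was 3 without replicate 5 or 9 at 1 h. The ERK phosphatase gene Dusp5 had -0.52 ± 0.13 (adjusted p = 0.0756), and Dusp1, a phosphatase that stress induces, had 0.03 ± 0.15. Of 41 glucocorticoid-responsive genes Errfi1 was again the only call, with 1 higher and 6 lower at an unadjusted p below 0.05 (3 lower without replicate 12 or 14 at 6 h) and a median of -0.02, which was -0.09 without replicate 12 at 6 h and 0.04 without replicate 4 at 1 h. Fkbp5, a chaperone of the glucocorticoid receptor, was at 85.2, 113 and 110.5 CPM at 1 h and 93.9, 81.5 and 72.4 CPM at 6 h (-0.31 ± 0.23, adjusted p = 0.447). The kinase gene Sgk1 had -0.05 ± 0.20 and Tsc22d3 -0.22 ± 0.18, all with overlapping groups. The cell-cycle inhibitor gene Cdkn1a did not overlap, at 12.2, 12.7 and 12.6 CPM against 8.97, 6.03 and 6.53 CPM, but with a wide SE (-0.80 ± 0.31, adjusted p = 0.169).

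Genes of protein folding and protein breakdown were lower at 6 h in most of their members. None of the heat shock or proteasome genes passed singly in the fit used throughout. In the further fit with GC and length trends removed, 7 heat shock and 2 proteasome genes passed, all lower. Of 31 proteasome subunit genes 30 had a negative log2 fold change, and 22 were lower and 0 higher at an unadjusted p below 0.05. Lower with such a p were 71% of the list and 10.7% of all genes. The median was -0.18, against 0.01 over all genes. Mean levels of the list were 5.96, 6.00 and 5.91 log2 CPM at 1 h and 5.83, 5.69 and 5.69 at 6 h. The catalytic-core gene Psmb7 was at 58.8, 59.8 and 51.7 CPM at 1 h and 46.8, 40.8 and 41.2 CPM at 6 h (-0.40 ± 0.09, adjusted p = 0.0599), and Psma2 had -0.34 ± 0.08 (adjusted p = 0.061). The 22 were 12 without replicate 14 at 6 h and 14 without replicate 5 at 1 h, and the median then was -0.16 and -0.17. Subunits of 1 complex are not independent of each other.

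Of 30 heat shock and cytosolic chaperone genes 0 passed and the median was -0.23. At an unadjusted p below 0.05, 15 were lower (50%, against 10.7% of all genes) and 2 higher (6.67%, against 10.6%). The number lower was 9 without replicate 14 at 6 h. Hsph1, a co-chaperone of Hsp70, was at 259, 309 and 278 CPM at 1 h and 222, 211 and 222 CPM at 6 h, without overlap (-0.37 ± 0.08, adjusted p = 0.0571). Cacybp had -0.59 ± 0.14 (adjusted p = 0.0595) and Hsp90aa1, the inducible Hsp90, -0.38 ± 0.09 (adjusted p = 0.0639). The groups overlapped in the strongly stress-inducible Hsp70 genes. Hspa1a was at 1.68, 2.82 and 2.74 CPM at 1 h and 2.70, 1.65 and 1.78 CPM at 6 h (-0.23 ± 0.22), and Hspa1b had 0.04 ± 0.23. These 2 genes are near-identical copies, so reads that match both cannot be assigned to a single gene and their counts are uncertain. In the endoplasmic reticulum 8 of 25 folding genes were lower (32%, against 10.7% of all genes) and 0 higher at an unadjusted p below 0.05. The median was -0.14. The number lower was 1 without replicate 5 at 1 h or replicate 14 at 6 h. It was 2 without replicate 9 at 1 h and 4 without replicate 12 at 6 h. Hspa5, the main chaperone there, overlapped between the times (-0.34 ± 0.14). Cct3, a subunit of the cytosolic chaperonin that is in none of these lists and was chosen after its values were seen, fell by 0.30 (SE 0.06, adjusted p = 0.0478).

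Of 42 nuclear respiratory chain genes tested, 40 had a negative log2 fold change, and the median was -0.15. At an unadjusted p below 0.05, 13 were lower (31%, against 10.7% of all genes) and 0 higher. The number lower was 8 without replicate 4 at 1 h or replicate 21 at 6 h and 21 without replicate 12 at 6 h. Uqcrfs1, the Rieske iron-sulfur subunit of complex III, was the only call, at 76.0, 75.2 and 70.4 CPM against 62.8, 59.5 and 55.6 CPM (-0.32 ± 0.07, adjusted p = 0.0478). Of 42 cytosolic ribosomal protein genes 0 passed and 6 were lower at an unadjusted p below 0.05 (14.3%, near the 10.7% of all genes). That number was 0 without replicate 4 at 1 h or replicate 14 at 6 h, 2 without replicate 21 and 10 without replicate 12. The 7 mitochondrially encoded genes tested were all at an unadjusted p above 0.05.

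**Figure D4:**
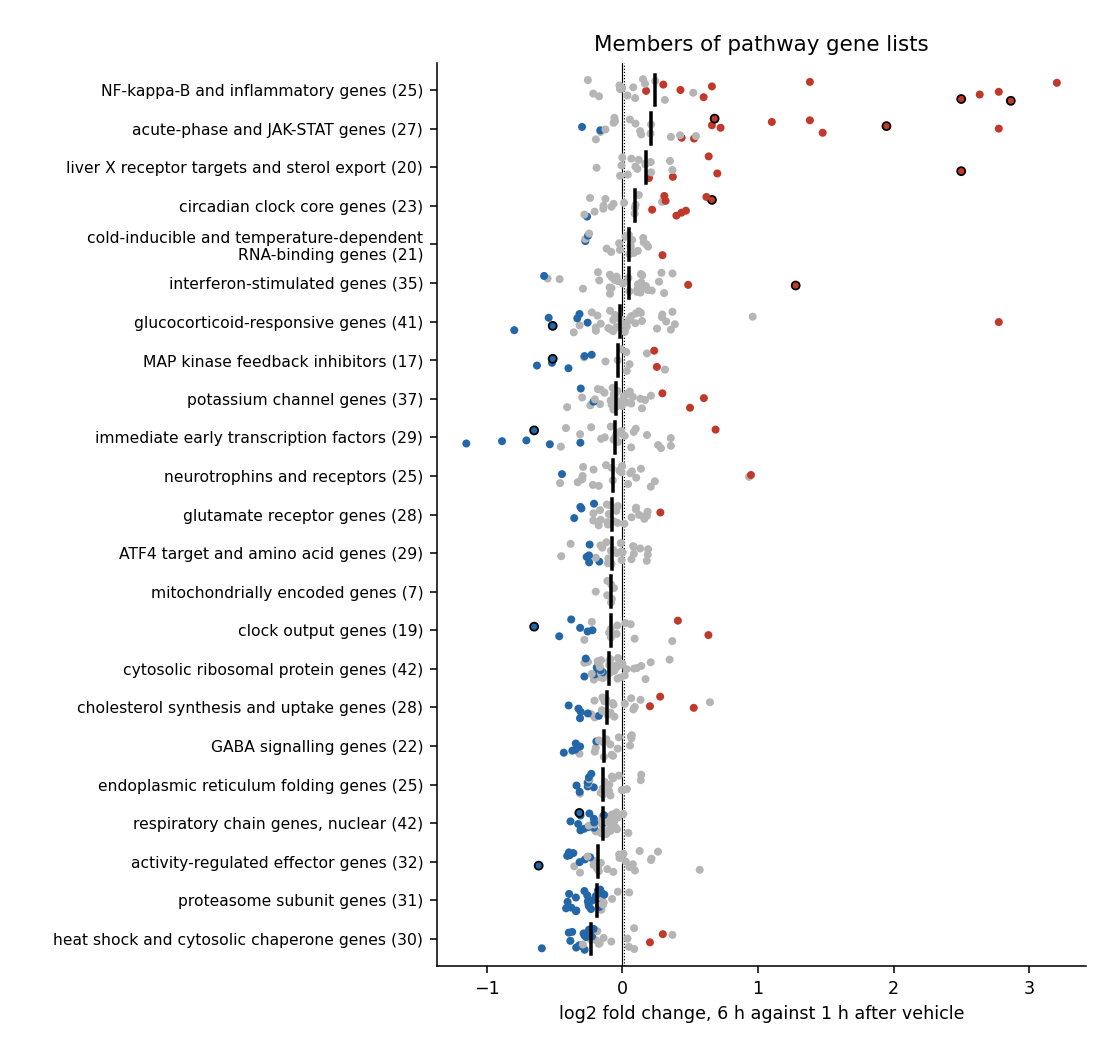
Log2 fold change of 6 h against 1 h after vehicle for each tested member of 23 pathway lists, with the number tested in brackets. Red and blue points have an unadjusted p below 0.05, grey points do not, a black rim marks an adjusted p below 0.05, thick lines are list medians and the dotted line is the median of all genes; lists run from heat shock genes at the bottom (median -0.23) to NF-kappa-B and inflammatory genes at the top (0.24).

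Several vessel wall and extracellular matrix genes were among the named increases. Vwf (chr6:125546774-125686679), the clotting factor that endothelium stores and secretes, was at 32.7, 30.6 and 34.0 CPM at 1 h and 58.0, 50.3 and 59.0 CPM at 6 h. The 1 h libraries were within a narrow range and the 6 h libraries all far above it. Vwf rose by 0.78 ± 0.09 (adjusted p = 0.00672). It missed the threshold without replicate 5 at 1 h (adjusted p = 0.0655) or replicate 12 at 6 h (0.0674), and its log2 fold change was 0.63 with meningeal markers as a covariate (adjusted p = 0.0619). In bulk tissue, more cells of a type and more RNA per cell cannot be told apart. Of 15 endothelial markers 0 passed, 5 were higher and 0 lower at an unadjusted p below 0.05, and the median was 0.13. The number higher was 0 without replicate 5 at 1 h or replicate 12 at 6 h, and 3 without replicate 9 at 1 h or replicate 21 at 6 h.

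Fn1, which encodes fibronectin, was at 117, 102 and 109.9 CPM at 1 h and 189.5, 162 and 190.1 CPM at 6 h, with no overlap (0.72 ± 0.12, adjusted p = 0.0309). Fn1 was listed here among subiculum and cortex markers, whose median was -0.08. Lamb2, the laminin beta 2 chain of vessel and pial basement membranes, was at 49.4, 47.6 and 49.3 CPM at 1 h and 73.1, 70.1 and 76.4 CPM at 6 h (0.59 ± 0.09, adjusted p = 0.0272). The matrix proteoglycan gene Podn was at 4.49, 4.26 and 5.09 CPM at 1 h and 8.20, 9.04 and 8.70 CPM at 6 h (0.91 ± 0.14, adjusted p = 0.0271). All 3 showed complete separation of the times, as did all 124 called genes. Tnxb, a tenascin gene, rose by 0.63 ± 0.10 (adjusted p = 0.027), and it overlaps the pseudogene Cyp21a2-ps. Pdgfrb, the growth factor receptor of pericytes and fibroblasts, was at 34.5, 29.7 and 28.1 CPM at 1 h and 46.9, 44.6 and 46.5 CPM at 6 h (0.58 ± 0.09, adjusted p = 0.0281). Adcy4, an adenylyl cyclase enriched in endothelium, rose by 0.82 ± 0.13 (adjusted p = 0.027).

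Further matrix genes among the 124 were picked out after their values were seen. The elastin gene Eln rose by 0.70 ± 0.12 (adjusted p = 0.0324), the laminin alpha 4 gene Lama4 by 0.78 ± 0.16 (adjusted p = 0.0462), the collagen receptor gene Mrc2 by 0.96 ± 0.20 (adjusted p = 0.0477) and the lysyl oxidase gene Loxl4 by 1.79 ± 0.32 (adjusted p = 0.0329). Loxl4 was low throughout, at 7, 8 and 5 reads against 24, 22 and 26. The levels of meningeal markers moved with these genes. Of 14 meningeal fibroblast markers 13 had a positive log2 fold change, 6 were higher and 0 lower at an unadjusted p below 0.05 (3 higher without replicate 12 at 6 h, 9 without replicate 14), and the median was 0.79. Col1a1, the main fibrillar collagen chain of meninges, was at 17.8 ± 2.31 CPM at 1 h and 33.2 ± 7.58 CPM at 6 h (mean and SD of 3 libraries), with 25.0 CPM in the lowest 6 h library and no overlap (0.90 ± 0.21, adjusted p = 0.0609). Replicate 14 was the lowest 6 h library in Col1a1 and in the meningeal list, and also in Fn1, Lamb2, Vwf, Pdgfrb, Adcy4, Lama4, Mrc2 and Loxl4. It was not the lowest in Podn, Tnxb or Eln. Outside the matrix genes, replicate 14 was also the lowest 6 h library in Bcl3, Lrg1, Tgm2 and Ifitm1, but not in Gli1, Sox9 or Jak3. Being the lowest was therefore not particular to matrix genes. The part of meningeal tissue in the matrix gene changes was not tested beyond the covariate fit. In it 0 of the 18382 genes tested passed, within or outside the matrix genes, and all 124 kept their sign. Log2 fold changes there were 0.53 for Fn1, 0.52 for Lamb2, 0.815 for Podn, 0.61 for Tnxb and 0.65 for Pdgfrb. They were 0.78 for Adcy4, 0.51 for Eln, 0.77 for Lama4, 0.57 for Mrc2 and 1.63 for Loxl4.

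Several glial and developmental signalling genes also rose. Gli1 (chr10:127329882-127341974), the transcription factor and target gene of Sonic hedgehog signalling, was at 2.90, 2.15 and 2.99 CPM at 1 h and 5.97, 8.70 and 6.89 CPM at 6 h. Every 6 h library was clearly above every 1 h library, with a log2 fold change of 1.42 ± 0.21 (adjusted p = 0.0256). Sox9, an astrocyte transcription factor, was at 25.3, 24.5 and 25.0 CPM at 1 h and 33.1, 38.0 and 40.1 CPM at 6 h (0.57 ± 0.09, adjusted p = 0.0281). Fgfr3, a growth factor receptor of astrocytes, was at 163, 148 and 171 CPM at 1 h and from 206 to 251 CPM at 6 h (0.55 ± 0.09, adjusted p = 0.027). Both separated the times fully, as did all 124 called genes. Sox9 and Fgfr3 were the only calls among 15 astrocyte markers, whose median was 0.03 (-0.02 without replicate 5 and 0.13 without replicate 4 at 1 h) and whose mean level overlapped between the times. Cspg4, the NG2 proteoglycan of oligodendrocyte precursors and pericytes, rose by 0.49 ± 0.10 (adjusted p = 0.0432). Notch1 (0.47 ± 0.10, adjusted p = 0.0478) and the Wnt target gene Axin2 (0.40 ± 0.08, adjusted p = 0.0462) were picked out after their values were seen.

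The other named increases were in genes that form no single group. Esyt1, which tethers the endoplasmic reticulum to the plasma membrane, rose by 0.68 ± 0.10 (adjusted p = 0.0256). Med12, a subunit of the Mediator kinase module, rose by 0.45 ± 0.07 and Cep164, a protein of the distal centriole, by 0.54 ± 0.08 (adjusted p = 0.027 for both). Leng8 was the most abundant of them, at 423, 430.0 and 455 CPM at 1 h and 651, 666 and 614 CPM at 6 h (0.56 ± 0.09, adjusted p = 0.027). Fam227a rose by 0.64 ± 0.10 (adjusted p = 0.027). Of the 85 genes that rose 76 were protein coding.

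The 39 genes that fell included synaptic and housekeeping genes. Nifk, a nucleolar partner of the proliferation antigen Ki-67, had the smallest adjusted p of them, at 24.9, 27.3 and 25.0 CPM at 1 h and 15.9, 16.6 and 17.8 CPM at 6 h (-0.62 ± 0.09, adjusted p = 0.0256). Synpr, a synaptic vesicle protein of the synaptophysin family, was at 104, 117 and 106 CPM at 1 h and 82.0, 80.6 and 73.1 CPM at 6 h (-0.47 ± 0.08, adjusted p = 0.0282). Calm2, one of the genes that encode calmodulin, was at 805, 821 and 787 CPM at 1 h and 580.1, 500.4 and 558 CPM at 6 h (-0.56 ± 0.10, adjusted p = 0.0394). In all 3 the times were fully separated, as in all 124 called genes. Dynll1, a dynein light chain gene, fell by 0.38 (SE 0.06, adjusted p = 0.0309). Napepld, the enzyme that makes anandamide precursors into N-acylethanolamines, fell by 0.50 (SE 0.09), Sybu, a kinesin adaptor of axonal transport, by 0.33 (SE 0.06), Nme1, a nucleoside diphosphate kinase gene, by 0.35 (SE 0.06) and Tmem70, an assembly factor of ATP synthase, by 0.50 (SE 0.10), each with an adjusted p = 0.0394. The deubiquitinase gene Otub2 fell by 0.41 (SE 0.07, adjusted p = 0.0362). Anp32a, Lurap1l, Zmat2, Strap and Tceal9 complete the named decreases, between -0.37 and -0.62. Of the 39 genes that fell, 38 were protein coding.

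Pan-neuronal markers lay lower at 6 h beside these decreases, at 9.34, 9.45 and 9.40 log2 CPM at 1 h and 9.24, 9.27 and 9.22 at 6 h. Of 12, 0 passed and 4 were lower at an unadjusted p below 0.05, around a median of -0.14, among them the synaptic fusion gene Snap25 (-0.42 ± 0.10, adjusted p = 0.0676). The lists of GABA signalling, glutamate receptor and potassium channel genes gave no calls. Of 22 GABA signalling genes 0 passed, 6 were lower and 0 higher at an unadjusted p below 0.05 and the median was -0.14, led by the receptor subunit gene Gabra4 (-0.37 ± 0.10, adjusted p = 0.0844). Of 28 glutamate receptor genes 0 passed, with 4 lower (2 without replicate 12 at 6 h) and 1 higher at an unadjusted p below 0.05, against 10.7% and 10.6% of all genes, and a median of -0.07 (-0.04 without replicate 5 or 9 at 1 h). Among 37 potassium channel genes 0 passed, and Kcna4, an A-type channel gene, was nearest, at 19.7, 21.3 and 21.4 CPM at 1 h and 29.9, 29.6 and 28.5 CPM at 6 h (0.50 ± 0.10, adjusted p = 0.0511).

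Sterol genes gave few changes apart from Ch25h. In the list of 20 liver X receptor targets and sterol export genes, Ch25h was the only call, 5 were higher and 0 lower at an unadjusted p below 0.05, and the median was 0.17. The number higher was 3 without replicate 5 at 1 h or replicate 12 at 6 h. Srebf1, a lipogenic transcription factor gene, was at 55.5, 60.4 and 59.4 CPM at 1 h and 86.0, 90.7 and 95.9 CPM at 6 h, without overlap (0.64 ± 0.18, adjusted p = 0.0853). Of 28 cholesterol synthesis and uptake genes 0 passed, 3 were higher and 6 lower at an unadjusted p below 0.05, and the median was -0.11. The number lower was 2 without replicate 4 at 1 h or replicate 14 at 6 h and 3 without replicate 12 at 6 h. The number higher was 1 without replicate 5 or 9 at 1 h or replicate 14 at 6 h, and the median was -0.04 without replicate 4 and -0.06 without replicate 12. The lowest median of the cholesterol list with 1 library left out was -0.17. Among 21 cold-inducible and temperature-dependent genes 0 passed. Cirbp, whose message rises at lower temperature, was at 49.9, 48.9 and 50.4 CPM at 1 h and 61.4, 60.8 and 61.0 CPM at 6 h (0.30 ± 0.10, adjusted p = 0.118), and Rbm3 overlapped (0.18 ± 0.10). None of 29 ATF4 target and amino acid genes and none of 25 neurotrophin genes passed in edgeR's test, with 5 lower, and with 1 higher and 1 lower, at an unadjusted p below 0.05. With GC and length trends removed, 13 of the ATF4 genes were lower in this sense and 4 passed. With 1 library left out, the ATF4 genes had 3 lower without replicate 9 at 1 h or replicate 21 at 6 h. The neurotrophin genes had 4 lower without replicate 4 at 1 h, 3 lower without replicate 12 at 6 h and 3 higher without replicate 5 at 1 h.

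The same interval can be read in the 6 stigmasterol mice, which share no library with the vehicle comparison, although they were tested in the same model. There 1 gene passed, which is 0.00544% of those tested, and it was Bcl3, with a log2 fold change of 2.51 ± 0.27 (adjusted p = 0.00575). Of the 124 genes called in vehicle mice, 122 (98.4%) had the same sign in stigmasterol mice, as did 73.1% of all genes tested. An unadjusted p below 0.05 with the same sign was found for 100 of them (80.6%) and for 9.35% of all genes. Without regard to sign, 9.99% of all genes had such a p in stigmasterol mice, 5.41% higher and 4.59% lower. The median in stigmasterol mice was 0.34 for the 85 genes and -0.26 for the 39. Since the 124 were chosen for their size in vehicle mice, smaller values elsewhere are no measure of a weaker response.

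Side by side, Ch25h had 2.50 ± 0.35 in vehicle and 1.47 ± 0.32 in stigmasterol mice, a difference of 1.03 ± 0.49. Per3 had 0.66 ± 0.11 and 0.50 ± 0.11, and Homer1 -0.62 ± 0.11 and -0.63 ± 0.11. Jak3 had 0.72 ± 0.11 and 0.73 ± 0.11, and Sox9 0.57 ± 0.09 and 0.56 ± 0.09. Homer1, Jak3 and Sox9 differed between the sets of mice by less than their SE. Proteasome subunit genes had a median of -0.15 in stigmasterol mice with 11 of 31 lower and 0 higher at an unadjusted p below 0.05. With GC and length trends removed, that median was -0.07 and only 3 were lower. Heat shock genes had a median of -0.19 in stigmasterol mice with 9 lower, and NF-kappa-B and inflammatory genes one of 0.14 with 9 higher. With trends removed these were -0.16 with 12 lower and 0.12 with 9 higher. Of 29 immediate early transcription factors 2 were higher and 10 lower in stigmasterol mice at such a p, around a median of -0.12. Of 32 activity-regulated effector genes 0 were higher and 9 lower, around a median of -0.17. With trends removed the numbers lower were 10 and 8. Of the 124 genes, the 2 with opposite signs were Podn (-0.12 ± 0.14 in stigmasterol mice) and Loxl4 (-0.29 ± 0.28).

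A direct test of the difference between the 2 time effects in edgeR gave 0 genes at an adjusted p below 0.05, with a smallest adjusted p of 1 and 425 genes (2.31%) at an unadjusted p below 0.05, of which those with the larger value in vehicle mice were 1.67% of genes tested and those with the smaller value 0.642%. DESeq2 and limma-voom also gave 0 genes. Of the 124, 25 had an unadjusted p below 0.05 for the difference, among them Podn, Loxl4, Vwf, Mrc2, Lamb2 and Ifitm1. Vwf had a log2 fold change of 0.23 ± 0.09 in stigmasterol mice and Lamb2 one of 0.23 ± 0.09. Other vessel and matrix genes had larger values there. Tnxb had 0.56 ± 0.10, Pdgfrb 0.48 ± 0.09 and Lama4 0.55 ± 0.16. Adcy4 had 0.46 ± 0.12, Fn1 0.40 ± 0.12 and Eln 0.38 ± 0.12. The part of meningeal tissue in these values was not tested. In the stigmasterol libraries meningeal markers averaged between 3.05 and 4.42 log2 CPM at 1 h and between 3.27 and 3.72 at 6 h. Their median log2 fold change was -0.20 there, against 0.79 in vehicle mice. No gene was therefore shown to change with time in vehicle mice only.

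**Figure D5:**
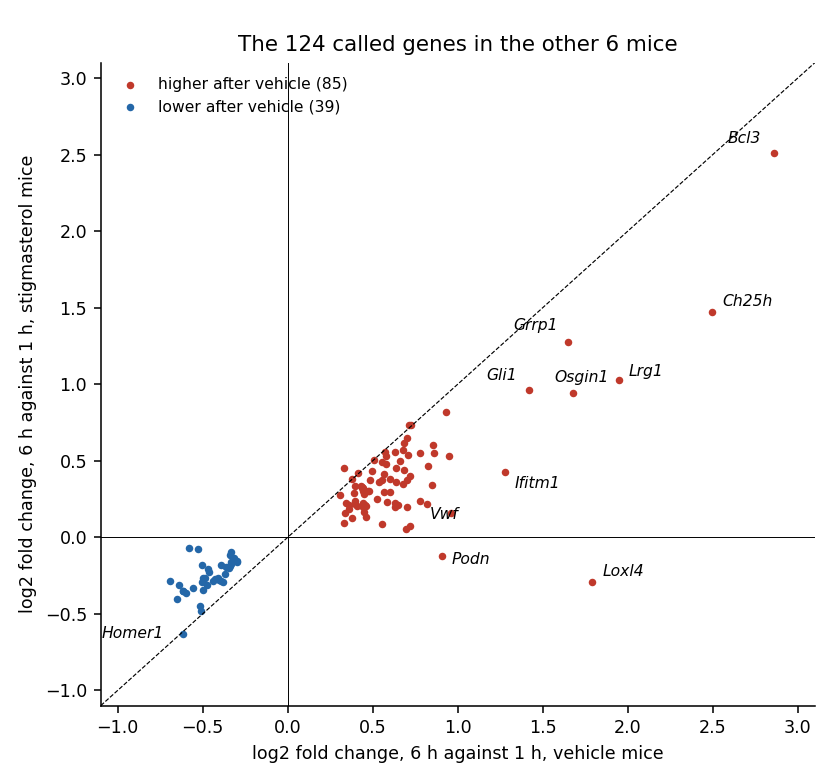
Log2 fold change of 6 h against 1 h in vehicle mice (horizontal) and in stigmasterol mice (vertical) for the 124 genes called after vehicle, red for the 85 higher and blue for the 39 lower; the dashed line marks equal values. All but Podn and Loxl4 have the same sign in both, and Bcl3 is at 2.86 and 2.51.

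GC content moved with the fold changes. Across all genes the Spearman correlation of the log2 fold change with transcript GC content was 0.30, a description over genes that share libraries. The median GC content was 55.0% for the genes that rose, 46.7% for those that fell and 49.6% for all genes tested. With each library's trends in GC content and length removed, the correlation was -0.04 and 791 genes passed, 258 higher and 533 lower, including 98 of the 124. Bcl3 (2.72, adjusted p = 0.00951), Ch25h (2.56, adjusted p = 0.0146), Per3 (0.57, adjusted p = 0.0278), Vwf (0.58, adjusted p = 0.0217) and Nfil3 (-0.70, adjusted p = 0.0189) still passed, and Homer1 did not (-0.49, adjusted p = 0.0627). Some lists without a call then had called members, beside the heat shock and proteasome genes. Lower were 4 ATF4, 2 GABA signalling, 2 glutamate receptor and 2 pan-neuronal genes and 1 cold-inducible gene. Among endothelial markers 3 were higher, and among potassium channel genes 1 was higher and 2 were lower. Of the 124 genes, 44 overlap another gene of the table on either strand, among them Ch25h, Per3, Gli1 and Jak3. These overlaps are of whole spans with introns, and overlap of exons was not examined. Without a statement on strand, how far reads of the partner enter their counts is not known.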

How the data were processed

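RNA-seq raw counts per gene were deposited by the authors as 1 table of 12 libraries. Per the submitters' processing notes, the tools included bcl2fastq, cutadapt, STAR 2.4.2a and HTSeq 0.6.1p1 with GRCm38; strand handling is not given in the sources used here. Counts were used as deposited. Of 21532 gene identifiers 21501 matched GENCODE M21, which gave coordinates and symbols. Genes were filtered with filterByExpr and scaled by TMM, and 1 model over all 12 libraries, with 1 coefficient per group, was fitted with edgeR 4.0.16 (R 4.3.3), whose quasi-likelihood test with Benjamini-Hochberg adjustment gave every adjusted p at a threshold of 0.05. Nothing in the labels states separate cultures or cages. The p-values measure the spread between mice within groups, pooled over all 12 libraries, stigmasterol mice included. Alternatives were DESeq2 1.42.0, limma-voom (limma 3.58.1), other scalings and filters, marker covariates and leaving out libraries. The code was tested on simulated data.

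Genes named were up to 15 called genes in each direction with the smallest p, a mean of 1 CPM or more and no overlap between the times, up to 4 per list (all called members where 8 or fewer were called), and 35 genes chosen by name. The members, lists and rules were chosen with earlier results of these data known. Replicates of a group differed by more than sampling noise in every pair. Some results for single genes are not reported here.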

Additional observations from a re-analysis of the deposited data

How the results depend on the processing

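All 124 called genes kept their direction under every alternative that gave them a value. Where libraries were only left out, the separation of the groups in these genes all but fixed this beforehand. The number called was 963 at an adjusted p of 0.1, 976 with DESeq2's Wald test, 1771 with only the 6 vehicle libraries, 276 with the stricter filter, 187 with upper-quartile factors, 791 with GC and length trends removed (added after seeing the data), and 0 with the choroid plexus covariate, the meningeal covariate (added after seeing the data) or without replicates 4 and 9 at 1 h together; it was 0 to 4 with 1 library left out. Called members of the pathway lists, 10 in all with marker lists not counted, numbered 50, 57, 100 and 46 at an adjusted p of 0.1, by DESeq2's test, with vehicle libraries only and with trends removed, 0 with either covariate or without replicates 4 and 9, and 0 to 1 with 1 library left out. In stigmasterol mice the count of 1 was 16 at an adjusted p of 0.1, 97 by DESeq2's test, 13 with trends removed, 8 with upper-quartile factors, 0 with the stricter filter and 0 to 5 with 1 library left out. The causes were not tested.

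Some log2 fold changes that had not passed the threshold reversed, from values near 0 and also from -0.31 for Arc and 1.34 for Ttr. With the meningeal covariate Arc was 0.451, Hspa1b -0.0187, Nptx2 0.0664, Nr1d1 0.0841 and Nr1d2 -0.0488. With the choroid plexus covariate Hspa1b was -0.287 and Junb -0.128. With trends removed Dusp1 was -0.0161, Hspa1b -0.105, Junb -0.13, Nr4a1 -0.0212 and Tef -0.0642. Without replicates 4 and 9 Hspa1b was -0.299, Junb -0.193 and Ttr -0.202. With 1 library left out the ranges were -0.483 to 0.0156 for Arc, -0.0184 to 0.0754 for Dusp1, -0.118 to 0.24 for Hspa1b, -0.0867 to 0.14 for Junb, -0.114 to 0.00759 for Nr1d1, -0.0254 to 0.083 for Nr1d2, -0.221 to 0.159 for Sgk1 and -0.00415 to 0.0603 for Tef. No paired analysis was possible because the vehicle groups share no replicate number. Depth limits Bcl3, Ch25h, Loxl4, Osgin1 and Lrg1, which have 28 reads or fewer in each library at 1 h.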
